A study of Mus musculus with 56 samples.

Results

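CpG-dense distal peaks were defined as the autosomal ATAC-seq peaks that were centred over 5 kb from every annotated transcription start site (TSS) and held 10 or more CpG dinucleotides in their sequence (all peaks have the same width). The definition used sequence and position and no measured accessibility. It took in 8663 of 297361 peaks (2.91%), or 5.09% of the 170155 distal autosomal peaks. The 110858 distal peaks with 4 or fewer CpGs served as the CpG-poor reference, and 50634 lay in between. Each library came from a bulk ATAC-seq reaction on 1000 cells, which marks open DNA through transposase insertions.

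The cells were Hoxb8-ER clones, that is, granulocyte-monocyte progenitors (GMP) from the bone marrow of a Tet2 fl/fl mouse, held in an undifferentiated state by a retrovirally delivered Hoxb8 fused to the estrogen receptor and by 0.5 µM beta-estradiol. Each clone grew from 1 GMP and was split into sister lines, with Cre for Tet2 KO or GFP as control brought in by an integrase-defective lentivirus (multiplicity of infection 200). The 56 libraries came from 4 GM-CSF Tet2 KO lines and 4 GM-CSF control lines, raised in 10 ng/ml GM-CSF to obtain macrophage progenitors, and from 24 SCF Tet2 KO lines and 24 SCF control lines, raised in about 100 ng/ml SCF to obtain neutrophil-biased cells. Each line gave 1 library and the replicates are clones of 1 mouse, so that p-values describe the spread between clones and not between animals. The titles of clones 20 to 22 name SCF, whereas their treatment field names GM-CSF, by which they were grouped. In bulk samples, fewer cells with an open peak and less opening per cell cannot be told apart.

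TET2 oxidizes 5-methylcytosine, which in mammals lies almost wholly at CpG dinucleotides, and so opens a path to demethylation. Most CpGs of the genome are methylated and have been lost over evolution by deamination, whereas CpG islands, which lie mainly at promoters, stay unmethylated and keep their CpGs. Islands far from known promoters, called orphan islands, can act as enhancers or as unannotated promoters, while most distal enhancers are CpG-poor. DNA methylation itself was not measured in these libraries.

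Stretches of 300 bases from the start of 6 peaks (mm10, GRCm38.p6 from RefSeq, plus strand) show what the definition separates, with every CpG in capitals. The peak near Wnt7b and the peak between Rpn1 and Gata2 are shown because they were higher in Tet2 KO lines, the peak in Mob3b because it was higher and the peak near Hlf because it was lower in GM-CSF, and the peak near Glis2 because it was highly accessible in every group. The last is a highly accessible CpG-poor distal peak, shown for contrast (mean of 56.5 CPM).
Near Wnt7b, chr15:85634524-85634823: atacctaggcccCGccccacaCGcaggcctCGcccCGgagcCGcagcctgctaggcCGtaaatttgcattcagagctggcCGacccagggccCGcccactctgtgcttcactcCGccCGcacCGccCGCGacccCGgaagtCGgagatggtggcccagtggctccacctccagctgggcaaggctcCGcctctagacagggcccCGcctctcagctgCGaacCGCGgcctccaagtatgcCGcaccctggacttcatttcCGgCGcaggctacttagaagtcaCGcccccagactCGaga
Between Rpn1 and Gata2, chr6:88116961-88117260: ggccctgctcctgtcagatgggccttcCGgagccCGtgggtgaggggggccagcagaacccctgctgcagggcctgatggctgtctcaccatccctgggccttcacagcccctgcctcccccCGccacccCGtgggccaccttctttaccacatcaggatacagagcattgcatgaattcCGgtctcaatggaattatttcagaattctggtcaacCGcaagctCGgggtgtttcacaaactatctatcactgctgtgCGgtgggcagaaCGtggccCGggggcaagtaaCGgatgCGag
In an intron of Mob3b, chr4:35099848-35100147: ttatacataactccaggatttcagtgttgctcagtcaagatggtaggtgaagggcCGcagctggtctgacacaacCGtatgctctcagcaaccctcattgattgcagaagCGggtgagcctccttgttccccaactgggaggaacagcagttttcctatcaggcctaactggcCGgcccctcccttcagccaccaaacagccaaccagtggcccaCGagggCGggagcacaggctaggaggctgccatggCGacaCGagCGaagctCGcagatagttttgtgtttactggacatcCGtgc
Near Hlf, chr11:90417958-90418257: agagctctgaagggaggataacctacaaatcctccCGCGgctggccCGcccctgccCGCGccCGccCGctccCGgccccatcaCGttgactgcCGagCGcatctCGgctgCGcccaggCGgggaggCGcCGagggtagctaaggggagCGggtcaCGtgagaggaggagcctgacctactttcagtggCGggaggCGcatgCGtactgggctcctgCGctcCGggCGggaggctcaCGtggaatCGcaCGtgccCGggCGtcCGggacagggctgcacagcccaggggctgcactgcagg
Near Glis2, chr16:4586612-4586911: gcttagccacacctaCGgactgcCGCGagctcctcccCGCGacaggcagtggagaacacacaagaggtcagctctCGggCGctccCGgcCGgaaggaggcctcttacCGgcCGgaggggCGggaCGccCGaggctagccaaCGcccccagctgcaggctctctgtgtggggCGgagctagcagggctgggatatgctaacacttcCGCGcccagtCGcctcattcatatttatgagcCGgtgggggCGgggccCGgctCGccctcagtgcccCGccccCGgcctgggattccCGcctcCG
CpG-poor, near Lbr, chr1:181860691-181860990: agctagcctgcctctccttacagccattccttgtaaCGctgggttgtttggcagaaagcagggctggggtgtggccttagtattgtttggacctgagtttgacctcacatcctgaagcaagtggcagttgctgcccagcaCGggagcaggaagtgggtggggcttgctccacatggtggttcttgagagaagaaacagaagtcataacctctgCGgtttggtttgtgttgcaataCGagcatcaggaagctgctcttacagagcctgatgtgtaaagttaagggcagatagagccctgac
The stretches hold 25, 12, 11, 30, 27 and 4 CpGs in the order given, and the peaks they start have a GC content of 67.8, 60.1, 55.8, 70.8, 69.8 and 51.8%.

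Most members were at the lower end of CpG density. Of the 8663, 6929 held 10 to 14 CpGs, 1028 held 15 to 19 and 706 held 20 or more, up to 60. Median GC content was 47.2% in CpG-poor peaks, and 54.8%, 59.5% and 66.1% in members of the 3 classes from low to high. The ratio of observed to expected CpGs had medians of 0.139, 0.500, 0.624 and 0.804 in the same order, against 0.757 in promoter peaks (within 1 kb of a TSS) with 10 or more CpGs, which the densest class exceeded. Coding exons held 17.6% of members, against 0.768% of CpG-poor peaks. Introns held 36.7% against 52.4%, noncoding exons 4.62% against 2.22%, and intergenic DNA 41.1% against 44.6%.

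Accessibility was higher in each class of higher CpG count. It is given in CPM, the counts in a peak scaled by the total of its library over all peaks. The share of peaks with at least 5 CPM, as the mean of the 4 group means, was 4.04, 6.83, 9.96, 18.4 and 34.1% from CpG-poor peaks over 5 to 9, 10 to 14 and 15 to 19 to 20 or more CpGs. The median over peaks was 1.14, 1.39, 1.55, 1.81 and 2.74 CPM in the same order. Members in coding exons were less often accessible, as 5.30% of them reached 5 CPM, against 10.2% of intronic and 18.7% of intergenic members. In all, 1120 members reached 5 CPM, 81 had counts in each of the 56 libraries and 2 had none in any. Some members lie at starts known to another annotation: 446 (5.15%) were within 1 kb of a RefSeq transcript start, against 1.93% of CpG-poor peaks. By class this share was 4.20, 7.00 and 11.8% of members with 10 to 14, 15 to 19 and 20 or more CpGs. The part of such starts in the higher accessibility was not tested.

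**Figure D1:**
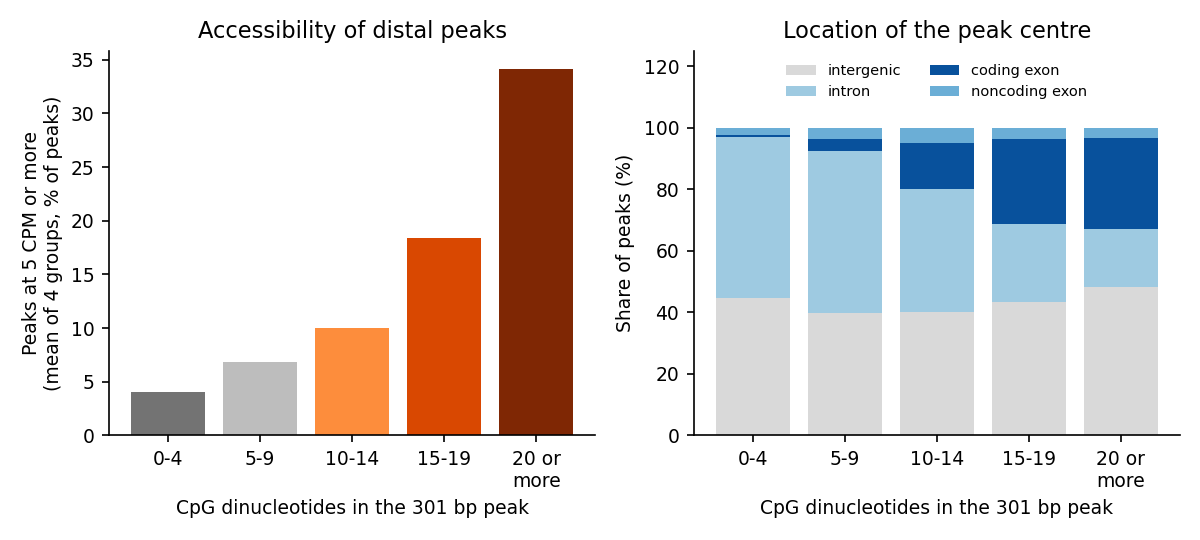
Distal autosomal peaks by number of CpG dinucleotides per peak, from CpG-poor to 20 or more. Bars give the percentage of peaks with a mean of at least 5 CPM, which reached 34.1% in the densest class, and the percentage of peaks in each kind of location, where coding exons reached 29.7%.

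Depth limited what single peaks could show. Libraries held 39379 to 468878 counts in GM-CSF KO lines, 88234 to 766838 in GM-CSF controls, 130049 to 1079233 in SCF KO lines and 102302 to 1042973 in SCF controls. A single count thus equals 25.4 CPM in the shallowest library. All 12 progenitor and granulocyte-monocyte marker genes had a promoter peak, with a median of 20.5 CPM in GM-CSF controls and 38.4 CPM in SCF controls. Of 20 marker genes of T, B, erythroid, endothelial and stromal cells 18 had one, with medians of 4.24 and 3.68 CPM, and ranges of 0 to 14.6 CPM and 0.795 to 40.2 CPM. Among these the B cell gene Ebf1 had the highest value in SCF controls. The part of such cells in the cytokine results was not tested. Libraries of clones 5, 13 and 16 stood apart, with 6.85 to 7.45% of their autosomal counts on chromosome 1, against 5.93 to 6.55% in the other clones. The deletion of Tet2 itself was not measured here.

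The 8 most accessible members were open in all groups. By nearest coding TSS they belong to Lars2, the mitochondrial leucyl-tRNA synthetase (309 CPM as the mean of the group means), Wnt7b, a Wnt ligand (174 CPM), Zfp395 (105 CPM), Glis2, a zinc finger factor (101 CPM), Scd2, a fatty acid desaturase (95.7 CPM), Ccne1, which encodes cyclin E1 (95.5 CPM), Trappc9, of a vesicle tethering complex (95.5 CPM), and Zfp239 (88.3 CPM). They hold 15 to 33 CpGs. The member near Glis2 (chr16:4586612-4586912, intergenic, 7.95 kb from its TSS) held 93.4 ± 39.5 CPM in GM-CSF controls and 94.2 ± 19.5 CPM in SCF controls (SD, n = 4 and 24), and the groups overlapped. None of the 8 passed the test between cytokines in control lines (edgeR with Benjamini-Hochberg adjustment, adjusted p 0.466 to 0.908). The Lars2 member, in a noncoding exon, has 5 further copies in the genome at 90% identity or more over 150 bp or more, so that its counts are uncertain. Such copies were found for 33 of the 1309 members compared with the genome.

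The first comparison asked whether loss of Tet2 changed accessibility at CpG-dense distal peaks in SCF clones, and it changed few of them. Of 1093 members with at least 5 CPM as the mean of both genotypes, 3 rose and 0 fell in Tet2 KO lines (edgeR quasi-likelihood test paired by clone, Benjamini-Hochberg adjusted p at or under 0.01). This is 0.274%, against 0.858% of all 27287 peaks tested, of which 0.825% rose and 0.033% fell. DESeq2 called 1 member higher and 1 lower, and without the clone block edgeR called 1 higher, each of 1093 tested. With its filterByExpr filter edgeR called 1 and 1, but of only 209 members tested. In each of these, DESeq2 included, at most 1 of the 3 rises was therefore called. Of 3919 CpG-poor distal peaks 1 rose and 3 fell (0.102%), and of 11407 promoter peaks with 10 or more CpGs 209 rose and 4 fell (1.87%). At an adjusted p of 0.05 or less 9 members rose and 2 fell, against 1.48% of all peaks that rose (1.65% in either direction). At an unadjusted p under 0.05 there were 108 members, against 3203 of the 27287 peaks. Each of the 3 CpG classes held 1 of the 3 rises, among 662 members with 10 to 14 CpGs, 177 with 15 to 19 and 254 with 20 or more.

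Over all members tested, the median log2 fold change was -0.08, close to the -0.07 of CpG-poor peaks and against -0.04 for all peaks. The members' median minus that of CpG-poor peaks was -0.01, and -0.08 with an offset for GC content. The middle 80% of members lay between -0.40 and 0.21, and 38.1% had positive values. The members' median was -0.03 with library scaling set on CpG-poor peaks and -0.14 with DESeq2. By level it was -0.13 at 5 to 10 CPM, -0.09 at 10 to 20 CPM and 0.03 above 20 CPM, against -0.08, -0.05 and 0.02 for CpG-poor peaks. All 3 rises lay above 20 CPM, where 237 members were tested.

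The strongest rise was at the member near Wnt7b (chr15:85634524-85634824, intergenic, 25 CpGs). Its centre lies 78 bp from the RefSeq start of the long noncoding RNA D130051D11Rik and 52.2 kb from the nearest coding TSS, that of Wnt7b (ENSMUSG00000022382.15). It held 122 to 288 CPM in SCF KO lines (median 194 CPM), against 52.1 to 264 CPM in SCF controls (median 136 CPM). The groups overlapped, and KO lines were higher in 20 of 24 pairs. The log2 fold change was 0.43 ± 0.07 (SE, edgeR adjusted p = 1.49e-05). In clones 1 to 18 alone it was 0.39 (adjusted p = 0.00433), and in clones 23 to 29 alone 0.55, which did not pass (adjusted p = 0.472).

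The member between Rpn1 and Gata2 (chr6:88116961-88117261, intergenic, 12 CpGs) also rose. It lies 15.5 kb from the TSS of Rpn1 (ENSMUSG00000030062.7), which encodes ribophorin I of the oligosaccharyltransferase, and 76.8 kb from a TSS of Gata2, a transcription factor of stem and early progenitor cells that has a known distal enhancer in this interval in mouse. It held 39.7 to 214 CPM in SCF KO lines (median 68.1 CPM), against 22.0 to 117 CPM in SCF controls (median 57.9 CPM). The groups overlapped, with KO lines higher in 19 of 24 pairs. On the log2 scale KO lines were higher by 0.37 ± 0.09 (edgeR adjusted p = 0.00829). It was 0.36 without the clone block (adjusted p = 0.0578) and 0.32 with the promoter share of each library as a covariate (adjusted p = 0.0752), and passed in neither. The call was also lost without clone 13 (adjusted p = 0.0122), without clones 5, 13 and 16 (0.0193), with an offset for GC content (0.0123), with library scaling set on CpG-poor peaks (0.014), with filterByExpr (0.015), in clones 1 to 18 alone (0.0147) and in clones 23 to 29 alone (0.976). Promoter peaks took 51.8 ± 5.04% of counts in SCF KO lines and 50.1 ± 3.97% in SCF controls (SD, n = 24 each).

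The remaining rise was at a member 44.7 kb from the TSS of Arhgap12 (chr18:5989901-5990201, intergenic, 16 CpGs). It held 23.1 to 114 CPM in SCF KO lines (median 75 CPM), against 17.4 to 72.2 CPM in SCF controls (median 59.3 CPM). Of the 24 KO lines 14 lay above every control line, and 16 of 24 pairs were higher in KO lines. The difference was 0.38 ± 0.09 on the log2 scale (edgeR adjusted p = 0.00569), and the call was lost without the clone block (adjusted p = 0.0124), without clones 5, 13 and 16 (0.0576), with an offset for GC content (0.0202), with the promoter share as a covariate (0.0473), with filterByExpr (0.0116), in clones 1 to 18 alone (0.0146) and in clones 23 to 29 alone (0.964). The highly accessible member near Zfp395 did not pass, at 0.30 ± 0.08 (adjusted p = 0.0143, higher in 18 of 24 pairs), but did with upper-quartile scaling (adjusted p = 0.00339).

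No member passed in the other direction with edgeR among peaks of at least 5 CPM. The Lars2 member, whose counts are uncertain, was -0.18 ± 0.07 there (adjusted p = 0.137), but was called lower by DESeq2 (-0.25, adjusted p = 6.1e-05) and by edgeR with the filterByExpr filter (-0.26, adjusted p = 0.000969). The smallest p in that direction among peaks of at least 5 CPM was at a member 9.38 kb from the TSS of Gnai2, an inhibitory G protein subunit (chr9:107644599-107644899, 22 CpGs), which held 17.0 ± 7.23 CPM in SCF KO lines and 26.2 ± 8.64 CPM in SCF controls (SD, n = 24 each). Its log2 value did not pass (-0.54 ± 0.15, adjusted p = 0.0208, lower in 20 of 24 pairs, edgeR). Next came a member near Pde4d, a cAMP phosphodiesterase (-0.86 ± 0.25, adjusted p = 0.0448, lower in 16 of 24 pairs), one near Wnt2b, a Wnt ligand (-0.84 ± 0.27, adjusted p = 0.0779, lower in 18 of 24 pairs), and one near Ptpn1, a tyrosine phosphatase (-0.85 ± 0.28, adjusted p = 0.103, lower in 16 of 24 pairs). The 3 members with the most CpGs among those tested lie in coding exons of Exoc3l2 (57 CpGs) and of Nrg2, a neuregulin (56 CpGs), and 1 bp from a RefSeq start of Arhgap32 (53 CpGs). Their log2 values of -0.13 ± 0.17, -0.14 ± 0.14 and -0.06 ± 0.17 did not pass, and in clones 23 to 29 alone those at Exoc3l2 (0.50) and Arhgap32 (0.14) had the opposite sign.

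Summed over all members, the share of counts was slightly lower on average in SCF KO lines. Members took 3.04 ± 0.0707% of counts in SCF KO lines and 3.10 ± 0.108% in SCF controls (SD, n = 24 each). The paired difference was -0.0576 percentage points (SD 0.0951, SE 0.0194), lower in KO lines in 16 of 24 pairs. Without clones that had a library under 50% of the median depth it was -0.0796 (SE 0.0193), lower in 16 of 20 pairs. It was -0.0478 in clones 1 to 18 (lower in 10 of 17 pairs) and -0.0816 in clones 23 to 29 (lower in 6 of 7). The denser members did not share it. With 15 or more CpGs the difference was 0.000489 (SE 0.0188, lower in 14 of 24 pairs), and with 20 or more 0.00883 (SE 0.0160, lower in 11). With 8 or more it was -0.151 (SE 0.0589, lower in 19). Set against counts in CpG-poor distal peaks, the log2 ratio was -2.53 ± 0.18 in SCF KO lines and -2.56 ± 0.18 in SCF controls, and KO lines were lower in 13 of 24 pairs. The direction was thus not shared by the pairs on this scale, and no test was made on sums over members.

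**Figure D2:**
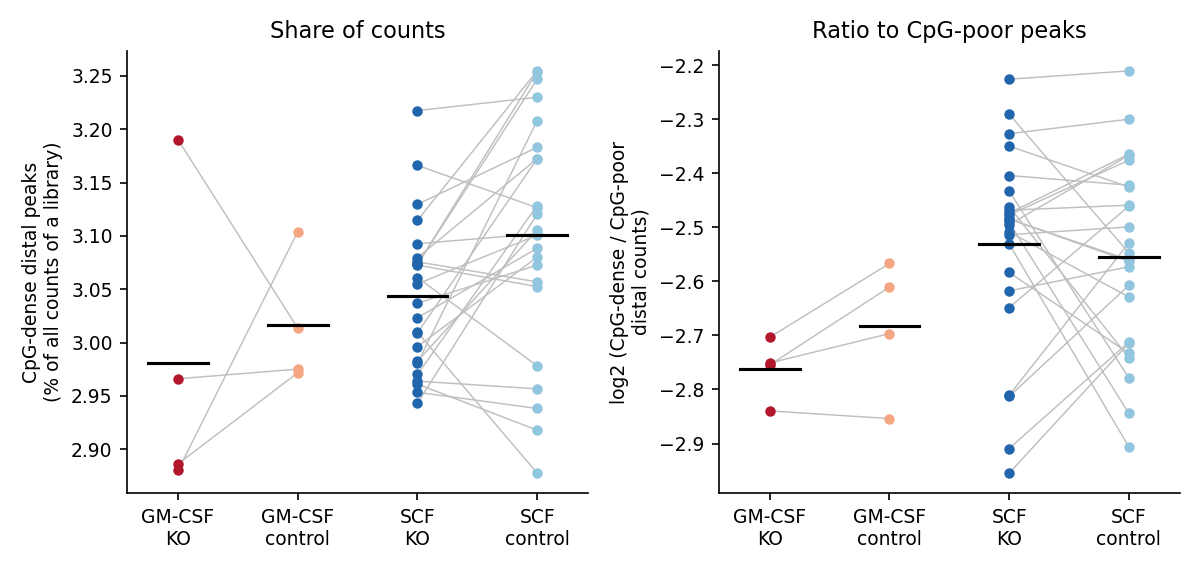
Share of the counts of each library in CpG-dense distal peaks (%) and log2 ratio of counts in CpG-dense to CpG-poor distal peaks, with each point 1 library, the bars group means and the sister lines of a clone joined. Shares run from 2.88% to 3.25% over all libraries, and the groups overlap.

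In GM-CSF clones no member passed for Tet2 KO against control. Of 1120 members tested 0 were called by edgeR's quasi-likelihood test, as were 0% of all 29108 peaks, and DESeq2 called 0 members. At an unadjusted p under 0.05 there were 53 members and 1280 peaks. The test of the KO effect in GM-CSF clones minus that in SCF clones called 0 members too (0% of all peaks, 0 members by DESeq2, 47 members and 1152 of 29108 peaks at an unadjusted p under 0.05). Members took 2.98 ± 0.145% of counts in GM-CSF KO lines and 3.02 ± 0.0615% in GM-CSF controls (SD, n = 4 each), lower in KO lines in 3 of 4 pairs. The median SE of a member's log2 fold change was 0.68 here, against 0.22 in SCF clones.

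The member near Wnt7b held 171, 178, 213 and 189.5 CPM in the GM-CSF KO lines of clones 19 to 22, against 235, 181, 138 and 130.4 CPM in their controls. The groups overlapped, with the KO line higher in 2 of 4 pairs, and the log2 fold change of 0.40 ± 0.20 did not pass (edgeR adjusted p = 1).

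**Figure D3:**
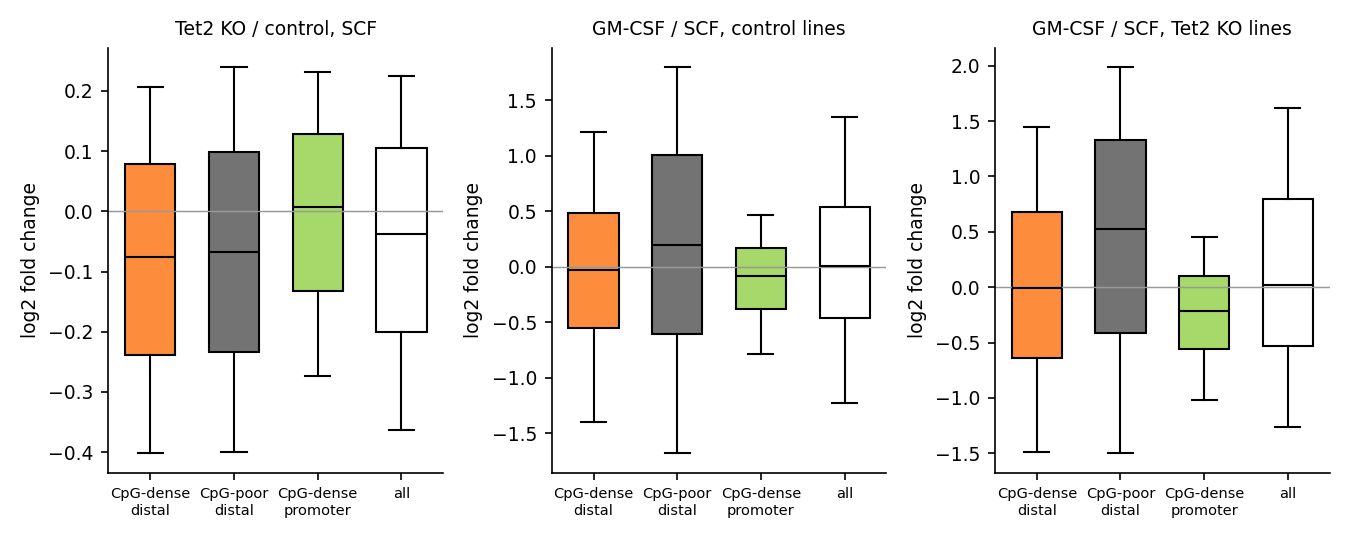
Log2 fold changes of the peaks tested, by class of peak, for Tet2 KO over control in SCF clones and for GM-CSF over SCF in control lines and in Tet2 KO lines. Lines in boxes are medians, boxes the middle 50% and whiskers the middle 80% of peaks, and medians of CpG-dense distal peaks are -0.08 for Tet2 KO in SCF clones and -0.03 for cytokine in control lines, against -0.07 and 0.20 for CpG-poor distal peaks.

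The second comparison asked how clones cultured in GM-CSF differed from those in SCF at these peaks, and many members differed. In control lines 92 of 1154 members tested were higher in GM-CSF (7.97%) and 103 were lower (8.93%), against 7.75% and 7.61% of all 30325 peaks (15.4% in either direction). The members' shares were thus close to those of all peaks. Of 4754 CpG-poor distal peaks 558 were higher (11.7%) and 481 lower (10.1%). The median log2 fold change was -0.03 for members, 0.20 for CpG-poor peaks and 0.01 for all peaks. With library scaling set on CpG-poor peaks, which shifted the median of all peaks by -0.15, 66 members were higher and 118 lower. Without clone 22 the counts were 32 and 55, and without clone 21 57 and 66.

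By class, 9.70% of the members with 10 to 14 CpGs were higher in GM-CSF and 9.84% lower, 5.75% and 5.75% of those with 15 to 19, and 4.20% and 8.40% of those with 20 or more. Promoter peaks with 10 or more CpGs had 2.10% and 4.82%. The differences between classes were not tested. Above 20 CPM, 18 of 237 members were higher and 33 lower, against 30 and 54 of 248 CpG-poor peaks. The middle 80% of log2 fold changes spanned -1.40 to 1.21 for members and -1.68 to 1.80 for CpG-poor peaks.

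Several members higher in GM-CSF were nearly closed in SCF lines. Those at Mob3b, Gnaq, Nfe2l3, Odc1, Ceacam19, Dgcr6 and Jade1 had SCF control means of 1.98 to 4.91 CPM. They passed the limit of 5 CPM only through the GM-CSF lines, and were named by fold change. Their low values in SCF thus follow in part from this choice. Among members of at least median accessibility, the largest rise was in an intron of Mob3b (chr4:35099848-35100148, 11 CpGs), 52.1 kb from the nearest coding TSS, that of the interferon gene Ifnk (ENSMUSG00000042993.6). It held 26.1, 34.0, 20.2 and 36.5 CPM in the GM-CSF controls of clones 19 to 22, against 0 to 9.77 CPM in SCF controls (median 0.711 CPM). All 24 SCF controls lay below the GM-CSF controls, and 12 of them had no count. The log2 fold change was 4.05 ± 0.43 (edgeR adjusted p = 2.15e-17). In Tet2 KO lines it was 4.13 ± 0.49, with 24.5, 25.4, 40.5 and 27.4 CPM in GM-CSF KO lines, which rest on 1, 1, 19 and 12 counts.

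A member 152 bp from the RefSeq start of the long noncoding RNA Gm32026 (chr19:16084285-16084585, intergenic, 14 CpGs) was next. Its nearest coding TSS, 48.4 kb away, is that of Gnaq, a G protein subunit. It held 34.8, 11.3, 31.3 and 40.4 CPM in GM-CSF controls, against 0 to 9.35 CPM in SCF controls (median 2.00 CPM), without overlap. The GM-CSF control of clone 20 rests on 1 count. GM-CSF controls were higher by 3.70 ± 0.38 on the log2 scale (edgeR adjusted p = 6.06e-18).

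The other rises named by size were near Nfe2l3, a leucine zipper factor whose TSS is 259.6 kb away (3.08 ± 0.39 on the log2 scale), near Gpr157, an orphan receptor gene (2.88 ± 0.33), near Odc1, the first enzyme of polyamine synthesis (2.53 ± 0.44), in a noncoding exon of Ceacam19 (2.37 ± 0.47), near Dgcr6 (2.34 ± 0.38) and near Jade1, a chromatin scaffold protein 147 kb away (2.16 ± 0.39). The member near Gpr157 is also 7.96 kb from Mir34a. All 24 SCF controls lay below the GM-CSF controls at Ceacam19 and Jade1, 21 did at Gpr157 and 21 at Dgcr6, while at Nfe2l3 and Odc1 a GM-CSF control without counts overlapped with SCF controls. At Ceacam19 the GM-CSF control of clone 19 rests on 1 count. All 8 rises were called in Tet2 KO lines too, at log2 values of 1.86 to 4.13 (edgeR adjusted p at most 0.000587). All 24 SCF KO lines lay below the GM-CSF KO lines at Ifnk, Gpr157 and Jade1. At each of these the GM-CSF KO lines of clones 19 and 20 held 1 count each, on which the separation rests for those lines. At Ceacam19, Dgcr6 and Odc1 1 GM-CSF KO line had no count, and at Gnaq and Nfe2l3 2 had none, so that the groups overlapped. Without clone 22, Ceacam19 (2.10, adjusted p = 0.0172) and Jade1 (1.70, adjusted p = 0.0251) did not pass in control lines, and with DESeq2 Odc1 did not (2.59, adjusted p = 0.0701).

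The 8 named members that were lower in GM-CSF had counts in 22 to 24 of the 24 SCF controls. All but that between Rpn1 and Gata2 had GM-CSF control means of 0.326 to 4.68 CPM. They passed the limit of 5 CPM only through the SCF lines, so that this too follows in part from the choice. Among members of at least median accessibility, the largest fall was at an intergenic member (chr17:83985341-83985641, 10 CpGs) whose nearest coding TSS, 138 kb away, is that of Haao, an enzyme of tryptophan breakdown. It held 0, 11.3, 1.84 and 0 CPM in GM-CSF controls, against 0 to 75.8 CPM in SCF controls (median 38.4 CPM), 23 of which lay above all GM-CSF controls. The log2 fold change was -4.71 ± 0.52 (edgeR adjusted p = 2.76e-16). GM-CSF KO lines had no count there among 987016, against 14.1 to 56.5 CPM in SCF KO lines. With 3 counts over the group as the floor, the peak was at least 12.4-fold lower in GM-CSF KO lines than in SCF KO lines.

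The member near Hlf, a transcription factor of hematopoietic stem cells (chr11:90417958-90418258, intergenic, 30 CpGs, 27.2 kb from the Hlf TSS), held 8.70, 0, 0 and 1.30 CPM in GM-CSF controls, against 15.7 to 58.6 CPM in SCF controls (median 34.6 CPM). These groups did not overlap, although the GM-CSF values rest on 2 counts in all. The log2 fold change was -4.47 ± 0.53 (edgeR adjusted p = 3.19e-14). In Tet2 KO lines it was -2.96 ± 0.52, with 48.9, 25.4, 2.13 and 0 CPM in GM-CSF KO lines, which rest on 2, 1, 1 and 0 counts.

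The member between Rpn1 and Gata2, one of the 3 that rose in SCF KO lines, was lower in GM-CSF. It held 26.1, 0, 5.52 and 2.61 CPM in GM-CSF controls, against 22.0 to 117 CPM in SCF controls, 23 of which lay above all GM-CSF controls. The log2 fold change was -3.41 ± 0.36 (edgeR adjusted p = 1.64e-17), and -4.52 ± 0.47 in Tet2 KO lines, where the 4 GM-CSF KO libraries held 3 counts in all.

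The other falls named by size were in introns of Mdga1 (-4.56 ± 0.45 on the log2 scale), of Bahcc1, a chromatin protein (-3.63 ± 0.62), and of Pde4d (-3.36 ± 0.65), near Pck1, the cytosolic enzyme of gluconeogenesis (-4.06 ± 0.57), and 357 bp from a RefSeq start of Tnrc18 (-3.79 ± 0.79). Each of these rests on 1 to 3 counts over the GM-CSF controls. In Tet2 KO lines the member in Mdga1 fell by 3.26 on the log2 scale, whereas that in Pde4d (-1.84 ± 0.62, edgeR adjusted p = 0.0239) and that at Tnrc18 (-1.49 ± 0.59, adjusted p = 0.0633) did not pass. The difference between genotypes was not called at any of them. Of the 3 members with the most CpGs, those in Nrg2 (-3.24 ± 0.49, edgeR adjusted p = 5.75e-09) and at Arhgap32 (-2.59 ± 0.55, adjusted p = 5.43e-05) were also lower in GM-CSF, and that in Exoc3l2 did not pass (0.57 ± 0.30).

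**Figure D4:**
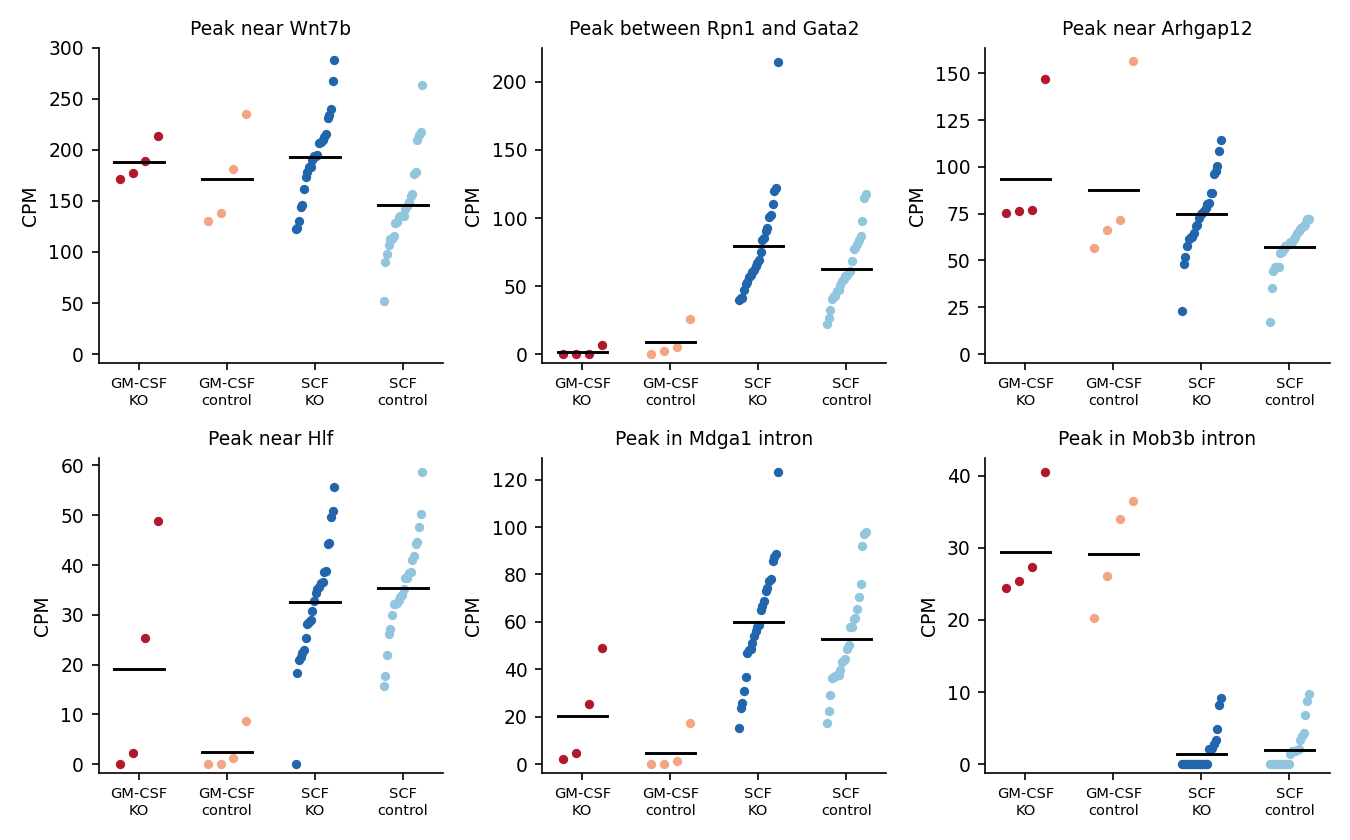
CPM at 6 members (near Wnt7b, Arhgap12 and Hlf, between Rpn1 and Gata2, and in Mdga1 and Mob3b), with each point 1 library and bars at group means. At Wnt7b, Arhgap12 and between Rpn1 and Gata2 the SCF KO lines exceed SCF controls on average with overlap, whereas near Hlf and in Mob3b (nearest coding gene Ifnk) no SCF control overlaps with the GM-CSF controls.

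In Tet2 KO lines 53 of 1206 members tested were higher in GM-CSF (4.39%) and 75 lower (6.22%), against 4.72% and 5.16% of all 32885 peaks (9.88% in either direction). Upper-quartile scaling, which shifted the median of all peaks by 0.21, gave 68 and 57, and DESeq2 29 and 24. The cytokine contrasts of KO lines and of control lines use separate libraries, although of the same clones. Of the 53 members called higher in KO lines 69.8% were called higher in control lines, and of the 75 called lower 77.3% were called lower there. Taken from control lines, 40.2% of the 92 and 56.3% of the 103 were called in KO lines. The matching shares over all peaks are not given here, so that these are not read as particular to the members.

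**Figure D5:**
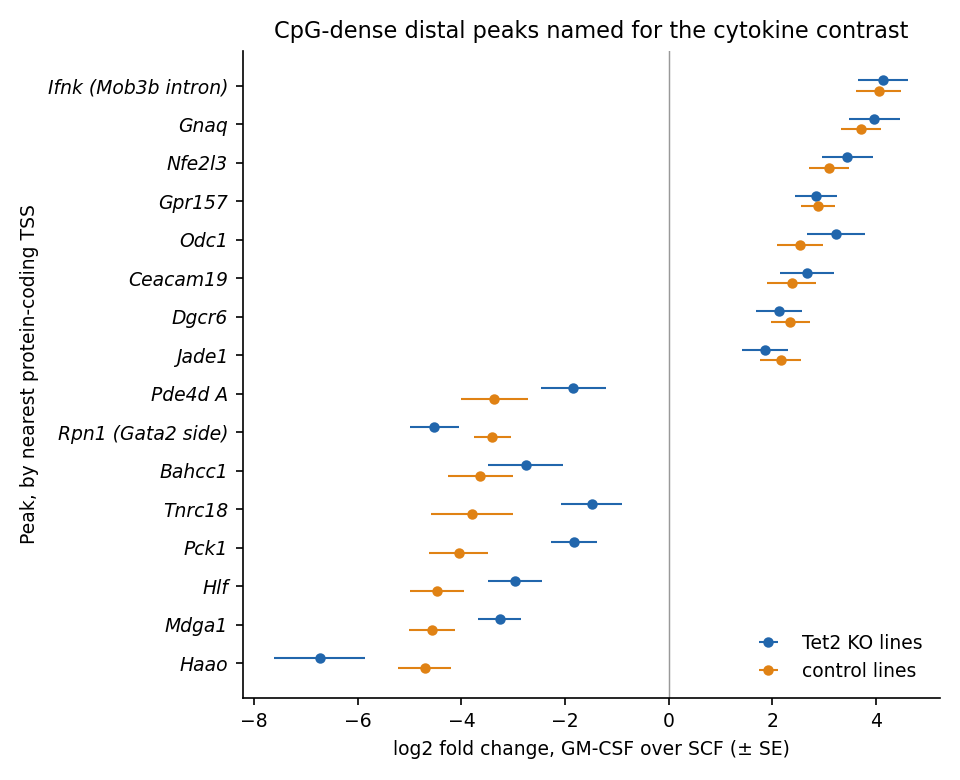
Log2 fold change of GM-CSF over SCF (± SE from edgeR) in Tet2 KO lines and in control lines, at the 8 named rises and 8 named falls, each labelled by its nearest coding gene. All 16 have the same sign in both genotypes. The value near Haao in KO lines (-6.74) depends on the prior count, since no count was found there in GM-CSF KO lines.

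Summed over all members, GM-CSF controls had 3.02 ± 0.0615% of their counts in CpG-dense distal peaks and SCF controls 3.10 ± 0.108% (SD, n = 4 and 24), with 4 SCF controls below and 12 above all GM-CSF controls. The difference, GM-CSF minus SCF, was -0.0850 percentage points, and turned to 0.00510 for distal peaks with 8 or more CpGs. Members with 20 or more CpGs took 0.632 ± 0.0441% in GM-CSF controls and 0.708 ± 0.0686% in SCF controls. In the same libraries promoter peaks took 47.4 ± 2.85% in GM-CSF controls and 50.1 ± 3.97% in SCF controls, and the part of this difference in the members' share was not tested.

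By nearest coding gene, CpG-dense peaks made up more of the distal peaks beside homeobox and other developmental regulators than of all distal peaks (272 of 1646, 16.5%). Over all peaks tested, 7.75% were higher and 7.61% lower for cytokine in control lines, and 0.825% rose for Tet2 KO in SCF clones. The gene lists hold too few tested members for their counts to be read against these shares. Of 22 tested for cytokine 0 were higher and 3 lower in GM-CSF, near the homeobox genes Barx2 (-3.81 ± 0.78) and Gbx2 (-2.44 ± 0.57) and in a coding exon of Wnt10a, a Wnt ligand (-2.43 ± 0.65). Without clone 21 those at Gbx2 (-1.89) and Wnt10a (-1.90) did not pass, nor did Wnt10a with DESeq2 (-2.38, adjusted p = 0.0198). In Tet2 KO lines the values at Barx2 (-1.60 ± 0.64, edgeR adjusted p = 0.0683) and Gbx2 (-2.16 ± 0.67, adjusted p = 0.0121) did not pass, and the Barx2 value in control lines rests on 1 count over the GM-CSF controls. Of 20 tested for Tet2 KO in SCF clones 1 rose, that near Wnt7b. Beside stem and early progenitor regulators lay 60 members (5.24% of their distal peaks). Of 8 tested for cytokine those near Hlf and in an intron of Runx1 (-1.82 ± 0.31) were lower in GM-CSF and that in an intron of Fli1 (1.97 ± 0.54) was higher, all of them genes of blood transcription factors. Without clone 22 the value at Fli1 was 1.52 and did not pass (edgeR adjusted p = 0.188).

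Beside monocyte and macrophage genes lay 42 members. The shares over all peaks for cytokine are again 7.75% higher and 7.61% lower, and too few members were tested to set against them. Of 7 tested for cytokine 0 were higher and 2 lower in GM-CSF, namely near Irf8, which directs monocyte fate (-1.47 ± 0.45, 40.7 kb from its TSS and in an intron of the predicted gene Gm20388), and near Id2, an inhibitor of E proteins (-2.21 ± 0.54). Without clone 22 neither passed (-0.76 and -1.36), nor did Irf8 without clone 21 (-1.69) or either with DESeq2 (adjusted p = 0.0631 and 0.0208). Of 5 tested beside imprinted genes 1, in an intron of Trappc9, was lower in GM-CSF (-3.09 ± 0.39). Of 7 members beside genes of DNA methylation 1 could be tested for cytokine, near Gadd45b, which takes part in active demethylation, and it was higher in GM-CSF at the limit of the test (1.36 ± 0.43, edgeR adjusted p = 0.01, without clone 21 0.76 and 0.405). It did not pass without clone 20 (adjusted p = 0.0107), without clone 22 (adjusted p = 0.0226) or with DESeq2 (adjusted p = 0.0265), nor in Tet2 KO lines (0.16 ± 0.60, adjusted p = 0.892). Beside neutrophil and granule genes lay 4 members, of which 1 was tested and not called. For Tet2 KO in SCF clones none of the members tested beside stem (9), monocyte (8), neutrophil (1), imprinted (7) and DNA methylation genes (2) was called. Of all peaks 0.858% were.

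Motifs, searched as plain letters on both strands of the peaks, differed in frequency between members and CpG-poor peaks. The GC box of SP and KLF factors (GGGCGG) was in 25.2% of members, 3.30% of CpG-poor distal peaks and 11.0% of all peaks. The NRF1 motif was in 3.71%, 0.0126% and 1.07% of these, and the E-box of MYC and USF (CACGTG) in 11.7%, 3.39% and 5.76%. Each of these holds a CpG, so that their shares follow in part from the definition. A CTCF core was in 13.5%, 5.95% and 8.41%. Motifs of myeloid factors whose fixed letters hold no CpG were less frequent in members. PU.1 (GAGGAAGT) was in 4.68%, 8.09% and 6.79%, and RUNX (TGTGGT) in 21.6%, 31.3% and 28.3%. C/EBP (TTGCNNAA) was in 10.4%, 15.2% and 13.3%, and the motif of GATA factors (AGATAA) in 8.52%, 15.6% and 12.6%. In the C/EBP letters N stands for any base, so that a match can hold a CpG. Median GC content was 55.8% in members and 47.2% in CpG-poor peaks, and the part of base composition in these shares was not tested.

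Motif content also differed between members by cytokine call. C/EBP, whose family drives granulocyte and monocyte genes, was in 29.3%, 8.74% and 11.9% of the 92 members higher in GM-CSF, the 103 lower and the 959 tested and not called. In the same order GATA was in 5.43%, 15.5% and 6.67%, PU.1 in 4.35%, 12.6% and 5.32% and RUNX in 23.9%, 31.1% and 20.5%. The CTCF core was in 6.52%, 15.5% and 27.0%, and the GC box in 22.8%, 44.7% and 39.9%. Members higher in GM-CSF thus held C/EBP letters most often, those lower held GATA, PU.1 and RUNX letters most often, and those not called held CTCF letters most often. Of the 8 named rises, those at Ifnk, Gnaq, Gpr157, Ceacam19 and Jade1 hold a C/EBP match. These shares are descriptions without a test, and a match is not a bound site. PU.1 letters were in 4 of the 92 and 13 of the 103, and GATA letters in 5 and 16. The split by call is given for members alone, so that it is not read as particular to them. For Tet2 KO in SCF clones, the median log2 fold change was -0.04 for members with a GC box and -0.09 for those without, and -0.13 and -0.07 with and without the CTCF core.

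Variation between clones was measured as the squared coefficient of variation of SCF controls beyond counting noise. Its median was 0.0239 for members and 0.0122 for CpG-poor peaks at 5 to 10 CPM, 0.0232 and 0.0244 at 10 to 20 CPM, and 0.0196 and 0.0240 above 20 CPM. Neither class was more variable at every level. Members lay on all autosomes, from 3.79% of the distal peaks of chromosome 1 to 6.61% of those of chromosome 5, and 11.5% of them were within 2 kb of another member.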

How the data were processed

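The authors deposited unnormalized counts for each peak in each library. Per the labels, their processing used Bowtie2, Picard and SAMtools on the mm10 build. The tools' versions are not named in the sources used here, nor is it said whether fragments or insertions were counted. The peaks came from summits of single-cell ATAC-seq data of the same study and from a published immune atlas, so that they were not called on these libraries. Libraries were matched to the labels by clone, genotype and treatment. CpGs were counted in GRCm38.p6, distances were taken to GENCODE vM21 TSSs, and peaks were placed by their centre.

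Counts were tested over all peaks with edgeR 4.0.16 (quasi-likelihood, TMM scaling) where the unweighted mean of the group means was at least 5 CPM, with Benjamini-Hochberg adjustment and calls at or under 0.01. DESeq2 1.42.0, R 4.3.3, Python 3.11.15 and blastn 2.17.0 were also used, and the tests were tried on simulated data. Tet2 KO and control lines were paired by clone, since both came from the same cell. Deviations of sister lines had a correlation of 0.00458 to 0.180 in SCF clones, with 5 of 24 over 0.1, and of 0.0203 to 0.0844 in GM-CSF clones. No libraries had identical counts. Of 563 pairs of libraries within groups 25 differed by no more than sampling noise (chi-square p over 0.05). They include the SCF KO lines of clones 13 and 16 (6924 peaks, p = 0.195), and results without clone 13 are among the alternatives. As labels give these lines different clones, all were kept.

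Named were the 8 most accessible members, the 3 with the most CpGs among those tested, those called for Tet2 KO with the 4 of smallest p where fewer than 3 passed in a direction, up to 8 called per direction for cytokine by fold change among members of at least median accessibility, and up to 4 called members per gene list. The members and lists were chosen with earlier results of these data known.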

Additional observations from a re-analysis of the deposited data

Results flagged for a closer look

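At 18 of 86 sets of values of the 4 GM-CSF lines of 1 genotype, 1 line stood apart from the other 3, each time at a named member, by Dixon's test at the 0.05 level (gap to the nearest line over the range of the set). Chance gives about 1 in 20 sets where values are continuous and normally distributed. Sets of few counts are neither, so that the number of sets is not read against that rate. In GM-CSF KO lines the gap was 1.0 of the range, with counts in 1 line alone, between Rpn1 and Gata2 (clone 21), near Irf8 (clone 21), near Arhgap32 (clone 21), near Id2 (clone 22) and in Nrg2 (clone 19). It was 0.916 in Wnt10a (clone 20), 0.873 in Exoc3l2 (clone 20), 0.913 in Bahcc1 (clone 19), 0.832 in Pde4d (clone 20) and 0.980 near Arhgap12 (clone 19). In GM-CSF controls the gap was 1.0 of the range, with counts in 1 line alone, in Wnt10a (clone 22), near Tnrc18 (clone 22) and near Barx2 (clone 22). It was 0.850 near Hlf (clone 19), 0.891 near Pde4d (clone 19), 0.925 in Mdga1 (clone 19), 0.838 near Haao (clone 20) and 0.849 near Arhgap12 (clone 19). A single count is worth 25.4 CPM in the shallowest line, of clone 20.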

How the results depend on the processing

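For Tet2 KO in SCF clones, the 3 members called higher became 7 with upper-quartile scaling, 5 without the 4 SCF clones that had a library under 50% of the median depth, and 9 at an adjusted p of 0.05, and the 0 called lower became 2 at that limit. DESeq2 and edgeR's filterByExpr each gave 1 higher and 1 lower, the latter among 209 members tested. Called higher were 1 member without the clone block, 1 with the pairing block and a GC content offset, 1 with the block and the promoter share, 1 in clones 1 to 18 alone and 0 in clones 23 to 29 alone. The same test without any filter was not run for Tet2 KO.

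For cytokine in control lines, the 92 members called higher and 103 lower became 27 and 59 with filterByExpr, 47 and 32 without a filter, 66 and 53 with DESeq2, 59 and 88 against SCF clones 23 to 29, 213 and 213 with 8 or more CpGs, 20 and 30 with 15 or more and 59 and 71 over 10 kb from a TSS. Changes of filter, CpG limit or distance also change how many members are tested, so that these counts are not compared as shares. Leaving out each GM-CSF clone gave 32 to 98 higher and 55 to 95 lower in control lines, and 15 to 57 and 29 to 67 in Tet2 KO lines. In KO lines DESeq2 gave 29 and 24 in place of 53 and 75, and an adjusted p of 0.05 gave 86 and 119. The members' median minus that of CpG-poor peaks was -0.23 on the log2 scale, -0.12 with a GC content offset and -0.40 to -0.26 without each GM-CSF clone.

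The difference in the share of counts, Tet2 KO minus control, was -0.155 percentage points in GM-CSF clones without those of low depth, against -0.0354 with all. With 8 or more CpGs the GM-CSF minus SCF difference was 0.00510, against -0.0850. Named members that passed kept their direction under each alternative. Of those that did not, the Tet2 KO value at Zfp239, 0.01 on the log2 scale, turned to -0.0531 with DESeq2, -0.0568 with filterByExpr, -0.00970 without low-depth clones, -0.0469 with the block and a GC content offset, -0.0003 in clones 23 to 29 alone and -0.0354 without clones 5, 13 and 16. At Exoc3l2 it turned to 0.0908 with the block and the promoter share and 0.50 in clones 23 to 29 alone, and at Arhgap32 to 0.14 in the same clones. The cytokine value at Wnt7b, 0.05, turned to -0.15 with scaling on CpG-poor peaks, -0.0721 without a filter, -0.0684 without low-depth clones and -0.0638 without clone 19, with a range up to 0.0830 without each GM-CSF clone. The call was lost in 33 refits of single members for cytokine (against 366 of the same sign on the same side of the limit) and in 17 for Tet2 KO (against 160). The cause of these shifts was not tested. Alternatives without clones 5, 13 and 16, without clone 13, without members that have copies, by RefSeq starts, and the 0.05 limit in KO lines were chosen after seeing the data.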
